A study of Homo sapiens with 5 samples.

Results

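The metallothioneins of HepG2 cells were examined after depletion of LSD2, together with MTF1, the transcription factor that binds their promoters in response to metals. Members were chosen by name: a probe set belonged to the group if its single gene symbol in the array's annotation was MT1E, MT1F, MT1G, MT1H, MT1M, MT1X, MT2A or MTF1. The rule found 13 of 30137 probe sets, or 8 of 12893 genes, and all 8 named genes had a value. Of the 13 probe sets, 10 belonged to the 7 metallothioneins and 3 to MTF1. HepG2 is an established human line from a liver carcinoma, grown here in medium with 25 mM glucose and 10% serum. LSD2, encoded by KDM1B, removes methyl groups from lysine 4 of histone H3. The treated group received siRNA against LSD2, with 3 different siRNAs on 1 array each. The control group received siRNA against GL3, a luciferase sequence that human cells lack, on 2 arrays. Both groups were transfected with the same lipid reagent at about 50% confluence and harvested after 3 to 4 days. The second control array is labelled as a technical replicate, and the mean of both arrays served as 1 control sample. The design asks which transcripts changed when LSD2 was depleted.

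Metallothioneins are small proteins rich in cysteine that bind zinc, copper and cadmium through thiolate clusters. Liver cells make them in quantity, and zinc, cadmium, glucocorticoids and inflammatory signals are known to induce them. MTF1 senses zinc through its zinc fingers and then binds short metal response elements upstream of metallothionein genes and of SLC30A1, a zinc exporter of the plasma membrane. The functional MT1 and MT2 genes lie side by side on chromosome 16 and resemble each other closely in sequence. In RefSeq GRCh38.p14 the cluster between BBS2 and NUP93 held 16 metallothionein loci, of which 11 were protein coding, and 7 of the 16 had a value here. Their order was MT2A, MT1E, MT1M, MT1F, MT1G, MT1H and MT1X.

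The upstream sequence of 3 members is shown because these genes include MT2A, read at the control level under siRNA 2, and MT1H, read above it, and both hold the element to which MTF1 binds. RefSeq's promoter table held 4 of the 8 members. Each run is the 250 bases before the gene's start, 5′ to 3′ on the + strand of GRCh38.p14, and capitals mark matches to the core of the metal response element, searched as TGCGCNC and TGCACNC on both strands. MT2A lies at chr16:56608334-56608583, MT1H at chr16:56669564-56669813 and MT1X at chr16:56682220-56682469.
MT2A: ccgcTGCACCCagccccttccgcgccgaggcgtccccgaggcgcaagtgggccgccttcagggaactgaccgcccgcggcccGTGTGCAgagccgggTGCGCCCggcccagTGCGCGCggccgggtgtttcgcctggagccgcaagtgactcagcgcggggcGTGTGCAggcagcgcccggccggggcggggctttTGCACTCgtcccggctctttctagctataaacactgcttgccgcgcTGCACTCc
MT1H: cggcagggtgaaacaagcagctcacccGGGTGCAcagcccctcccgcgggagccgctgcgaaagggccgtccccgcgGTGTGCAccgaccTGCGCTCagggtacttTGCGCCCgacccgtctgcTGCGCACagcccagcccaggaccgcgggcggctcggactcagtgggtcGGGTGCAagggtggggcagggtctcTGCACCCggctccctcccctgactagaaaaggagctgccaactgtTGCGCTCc
MT1X: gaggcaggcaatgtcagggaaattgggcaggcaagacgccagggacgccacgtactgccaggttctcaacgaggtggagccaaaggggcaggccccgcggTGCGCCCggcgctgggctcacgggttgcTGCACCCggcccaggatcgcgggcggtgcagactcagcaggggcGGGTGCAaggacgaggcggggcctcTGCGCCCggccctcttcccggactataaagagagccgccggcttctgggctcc
MT2A had 7 matches to the core, MT1H had 8 and MT1X had 4. Among all 35116 promoters of that source 24.8% held at least 1 match and 0.37% held 4 or more, with overlapping matches counted separately. The MTF1 promoter, on chromosome 1, held 0 matches and 1 match to the GC box GGGCGG. The letters TATAAA on the gene's own strand was found once in MT2A and once in MT1X, at a share of 6.8% of all promoters, and GGGCGG on either strand was found in 42.6%. A match is a run of letters and no measure of binding.

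**Figure D1:**
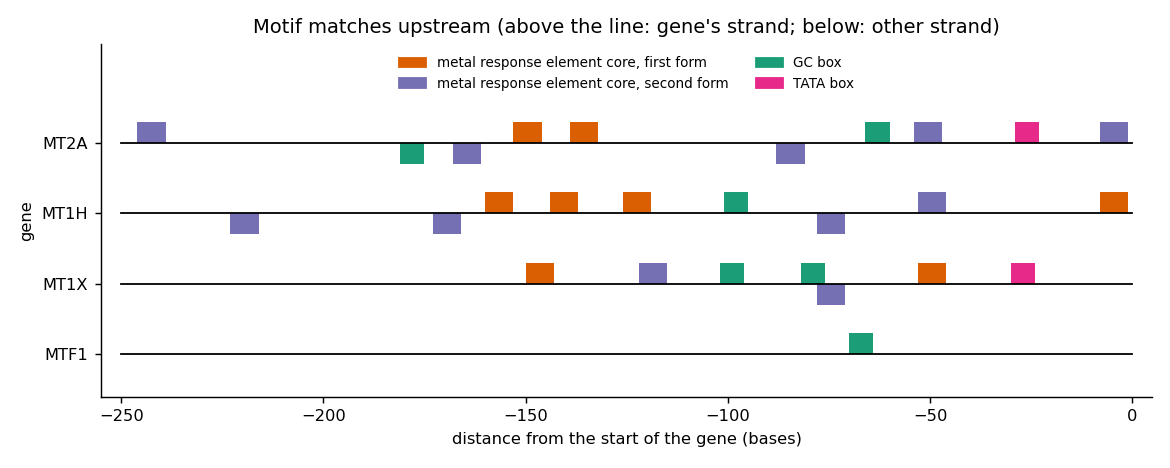
Matches to 4 motifs in the 250 bases upstream of MT2A, MT1H, MT1X and MTF1, by distance in bases from the gene's start, with boxes above each line on the gene's strand and boxes below on the other strand. The metal response element core appears 7, 8 and 4 times in the metallothioneins and 0 times in MTF1.

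The values were log2 values that the authors had centred on the median of the 5 arrays for each probe set, so they show how a transcript varied between arrays and not how abundant it was. In none of the 12893 genes did the limma fit reach an adjusted p under 0.05 (0% called), and 218 genes (1.69%) had an unadjusted p under 0.05. The targeted gene KDM1B differed from the control by -2.60, -1.73 and -1.38 under siRNAs 1, 2 and 3. Poly-A RNAs spiked into the samples before labelling read low on control array 2 and siRNA 3, with medians of -1.45 and -1.39 against control array 1 over 24 probe sets, and near it on siRNA 1 (0.04) and siRNA 2 (0.07). The arrays therefore fell into 2 sets, control array 1 with siRNAs 1 and 2, and control array 2 with siRNA 3, and for the genes named below with a value per siRNA, the value against the control array of the same set is given where its sign differs. Nothing in the labels ties the siRNA arrays to separate cultures. The p-values measure the spread among the 3 siRNA arrays, each of a different siRNA, and that spread may be technical. The control mean adds no spread of its own. The number of arrays limited the precision. Bulk RNA cannot tell a change per cell from a change in the make-up of the culture.

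None of the 7 metallothionein genes passed the test after LSD2 depletion, and their differences from the control were small. The mean over the 3 siRNAs ran from -0.14 for MT2A to 0.49 for MT1G, with a median of 0.10 beside a median of -0.02 over all genes. That median was -0.02 without siRNA 2, 0.27 without siRNA 3, 0.17 without control array 1 and 0.03 without control array 2. The siRNAs differed more than the groups did: the median over the 7 genes was 0.00 under siRNA 1, 0.60 under siRNA 2 and -0.08 under siRNA 3, beside -0.04, 0.03 and 0.01 over all genes. With 1 array per siRNA that difference between siRNAs has no test. siRNA 1, where KDM1B read lowest against the control, had metallothionein values closest to the control. Any relation between the depth of KDM1B loss and the metallothionein values was not tested. Above the control mean under all 3 siRNAs were MT1G and MT1H, 2 of 7, beside 17.9% of all genes, and 0 of 7 were below it under all 3, beside 18.2%. Within the spike-in sets siRNA 1 read below its control array for both MT1G and MT1H. At an unadjusted p under 0.05 limma called 0 of the 8 members.

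**Figure D2:**
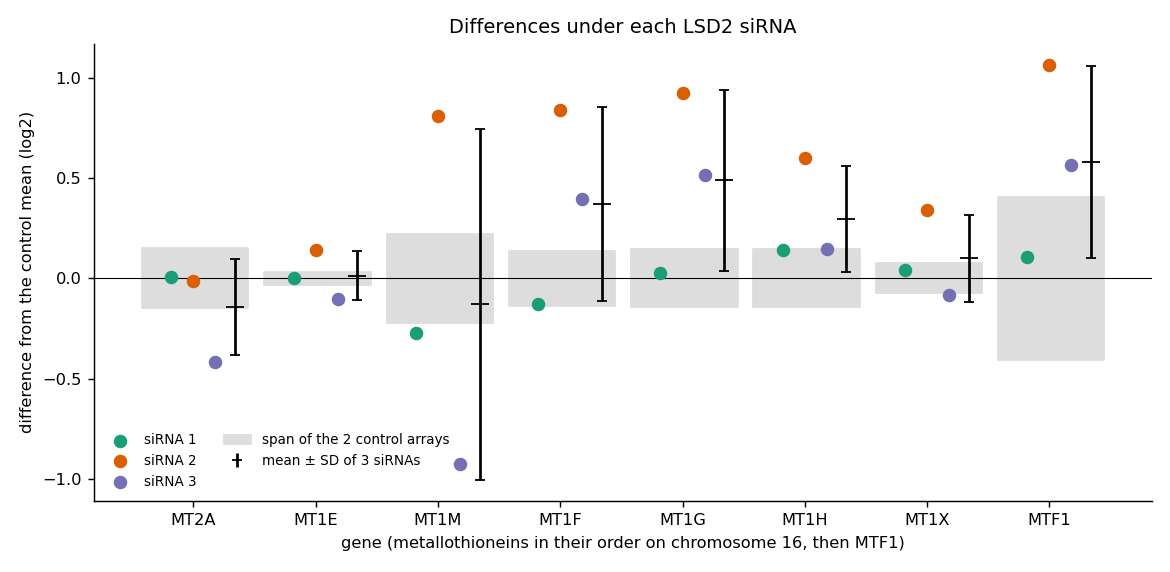
Difference of each gene from the mean of the control arrays, in log2 units, under siRNAs 1, 2 and 3 (coloured points), with the mean and SD of the 3 siRNAs (black) and the span of the 2 control arrays (grey). MT1F, MT1G and MT1H stood above the controls under siRNA 2, at 0.84, 0.92 and 0.60, while MT2A stood at -0.01.

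MT1G, a metallothionein gene often silenced by methylation in liver tumours, had the widest mean difference of the family. Its probe set 204745_x_at read 0.00 and -0.29 on control arrays 1 and 2, and -0.12, 0.78 and 0.37 under siRNAs 1, 2 and 3. The arrays of siRNAs 2 and 3 were above both controls, and siRNA 1 lay between the controls, so the groups overlapped. The mean difference was 0.49 ± 0.45 (SD, n = 3 siRNAs), with a limma standard error of 0.50, a 95% interval from -0.79 to 1.77 and an adjusted p = 0.9999. It was 0.27 without siRNA 2. Within the spike-in sets MT1G stood at -0.12, 0.78 and 0.66.

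MT1F, its neighbour on the side of MT1M, was read by 2 probe sets with the same order of the upper arrays. Probe set 213629_x_at read 0.00 and -0.44 on the controls and -0.45, 0.83 and 0.37 under siRNAs 1, 2 and 3. Probe set 217165_x_at read 0.00 and -0.10 on the controls and -0.08, 0.57 and 0.14 under the siRNAs. In both, siRNA 2 was the highest array, siRNA 3 came next, and siRNA 1 was at or near the lower control. The gene's mean difference was 0.37 ± 0.48 (SD, n = 3 siRNAs; limma 95% interval -0.96 to 1.69, adjusted p = 0.9999). It was 0.13 without siRNA 2, 0.62 without siRNA 1 and 0.23 without control array 2.

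MT1H, the next gene along, followed with a smaller span. Its probe set 206461_x_at read 0.00 and -0.29 on the controls and 0.00, 0.46 and 0.00 under siRNAs 1, 2 and 3. siRNA 2 stood alone above the others, and siRNAs 1 and 3 lay at the level of control array 1. The mean difference was 0.29 ± 0.26 (SD, n = 3 siRNAs; limma 95% interval -0.79 to 1.38, adjusted p = 0.9999). It was 0.15 without control array 2 and 0.14 without siRNA 2, and within the spike-in sets MT1H stood at -0.0049, 0.46 and 0.29 under siRNAs 1, 2 and 3.

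MT1X, at the far end of the cluster, was read differently by the 2 probe sets annotated to it. In the array's annotation the RefSeq record behind 204326_x_at is a non-coding RNA, and that behind 208581_x_at is an mRNA. Probe set 204326_x_at read -0.06 and -0.11 on the controls and 0.00, 0.55 and 0.10 under siRNAs 1, 2 and 3, with all 3 siRNAs above both controls. Probe set 208581_x_at read 0.12 and -0.12 on the controls and 0.00, 0.04 and -0.35 under the siRNAs. Here siRNA 3 was the lowest array and siRNA 2 lay between the controls. The mean differences were 0.30 ± 0.29 and -0.10 ± 0.21 (SD, n = 3 siRNAs), so the direction for MT1X depends on the probe set. The gene's value, the mean of both, was 0.10 (limma 95% interval -0.94 to 1.14, adjusted p = 0.9999), -0.02 without siRNA 2, 0.19 without siRNA 3, 0.17 without control array 1 and 0.03 without control array 2. Within the spike-in sets MT1X stood at -0.03, 0.26 and -0.01.

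MT2A is a widely expressed metallothionein. Its probe set 212185_x_at read 0.16 and -0.14 on the controls and 0.02, 0.00 and -0.41 under siRNAs 1, 2 and 3. siRNAs 1 and 2 lay between the controls and siRNA 3 below both. The mean difference was -0.14 ± 0.24 (SD, n = 3 siRNAs; limma 95% interval -1.21 to 0.92, adjusted p = 0.9999). It was 0.01 without control array 1, -0.29 without control array 2, -0.22 without siRNA 1 and -0.0038 without siRNA 3. Within the spike-in sets MT2A stood at -0.15, -0.16 and -0.27, below the control array under each siRNA.

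MT1E, next to MT2A, varied least. Probe set 212859_x_at read 0.00 and -0.05 on the controls and -0.06, 0.06 and 0.05 under siRNAs 1, 2 and 3. Its range over the 5 arrays, 0.13, was at or above that of 0.13% of all probe sets, where the median range was 1.05. Probe set 216336_x_at read 0.00 and -0.08 on the controls and 0.01, 0.15 and -0.32 under the siRNAs, with siRNA 3 lowest. The gene's mean difference was 0.01 ± 0.12 (SD, n = 3 siRNAs; limma 95% interval -0.98 to 1.0, adjusted p = 0.9999). Its sign turned without siRNA 2 (-0.05) and without control array 2 (-0.02), and within the spike-in sets it stood at -0.03, 0.11 and -0.07.

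MT1M varied most. Its probe set 217546_at read 0.45 and 0.00 on the controls and -0.05, 1.03 and -0.70 under siRNAs 1, 2 and 3. siRNA 2 was the highest of the 5 arrays and siRNA 3 the lowest. The mean difference was -0.13 ± 0.88 (SD, n = 3 siRNAs; limma 95% interval -2.04 to 1.78, adjusted p = 0.9999). It was 0.27 without siRNA 3, 0.09 without control array 1, -0.60 without siRNA 2, -0.06 without siRNA 1 and -0.35 without control array 2.

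**Figure D3:**
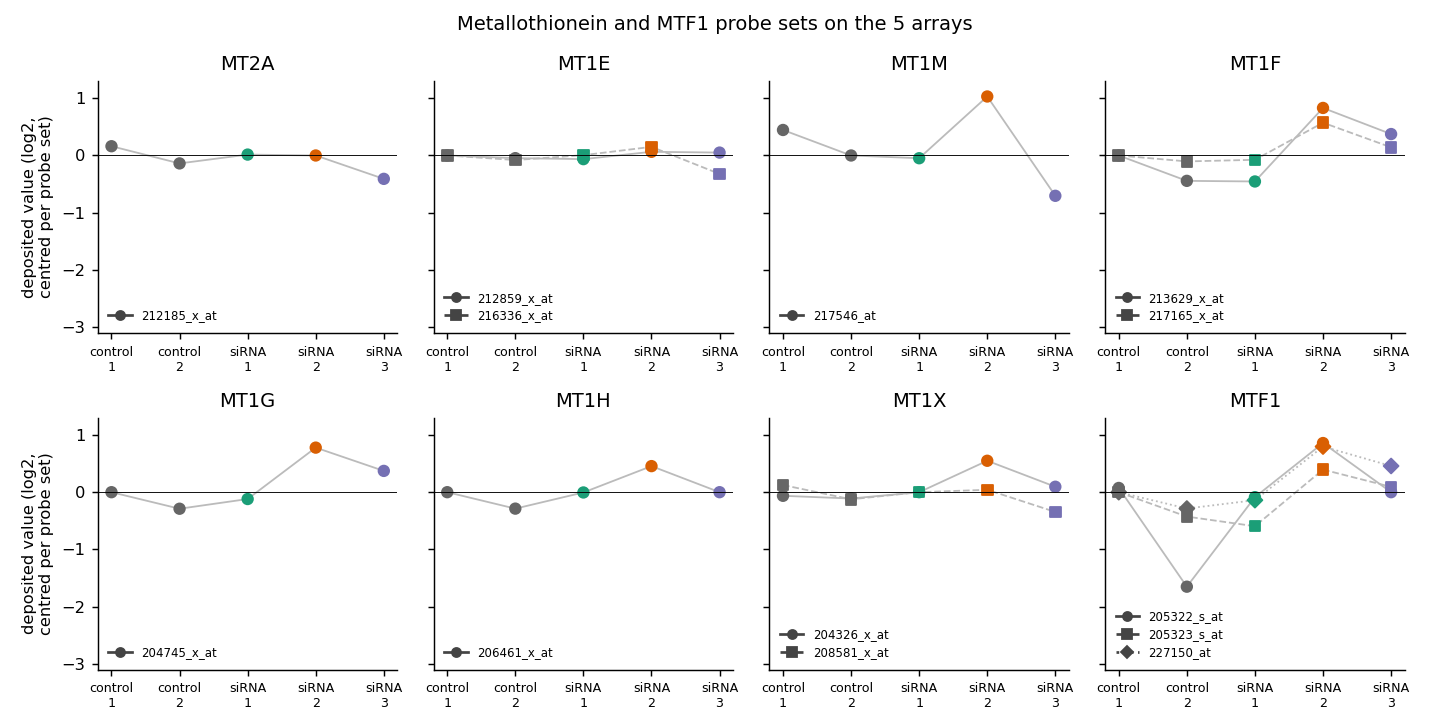
Deposited values of the 13 member probe sets on the 5 arrays, in log2 units centred per probe set, with grey points for the controls, coloured points for siRNAs 1 to 3 and a marker shape per probe set. siRNA 2 is the highest array in 8 of the 10 metallothionein probe sets and in all 3 of MTF1, and the probe sets of MT1X part under siRNAs 2 and 3.

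Across the probe sets, siRNA 2 was the highest of the 5 arrays in 8 of the 10 metallothionein probe sets, against 22.2% of all probe sets. The exceptions were the MT2A probe set and 208581_x_at of MT1X. siRNA 2 was above both control arrays in the same 8, against 34.3% of all probe sets. siRNA 3 was above both in 6 of 10 (all probe sets, 35%) and below both in 4 of 10 (all probe sets, 32.9%). siRNA 1 was above both in 2 of 10 (all probe sets, 30.8%). Control array 2 read below control array 1 in 10 of 10, against 50.4% of all probe sets, with a median of -0.27. These probe sets share sequence and are not independent of each other, so no test was made on the counts.

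Of the 10 metallothionein probe sets 9 carry the suffix _x_at, which marks probes that also match other transcripts, beside 8.58% of all probe sets. The exception is that of MT1M. The likeness of 2 probe sets was measured as the root mean square difference of their values over the 5 arrays, each centred on its mean, where 0 means the same profile. The 2 probe sets of 1 gene were not always the most alike. Probe set 212859_x_at of MT1E was nearest to 216336_x_at of the same gene, at 0.17. In turn 216336_x_at was nearest to 208581_x_at of MT1X, at 0.08. The median was 0.27 over the 3 such pairs and 0.29 over the 42 pairs of different metallothioneins, or 0.22 over 33 pairs without MT1M. Within the family, MT1X probe set 208581_x_at was nearest to MT2A, at 0.04, and 204326_x_at to 217165_x_at of MT1F, at 0.05. The MT1X pair differed by 0.27. Of the 30136 other probe sets on the arrays, 5 were as near to 208581_x_at and 18 to 204326_x_at, these family neighbours included. The values here do not separate transcripts of this family from each other where their probes match in common. MT1HL1, a metallothionein-like gene on chromosome 1 that also has an _x_at probe set, stood at 0.05, 0.41 and -0.16 under siRNAs 1, 2 and 3 (-0.05 under siRNA 1 within its spike-in set), and was nearest to 216336_x_at of MT1E.

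**Figure D4:**
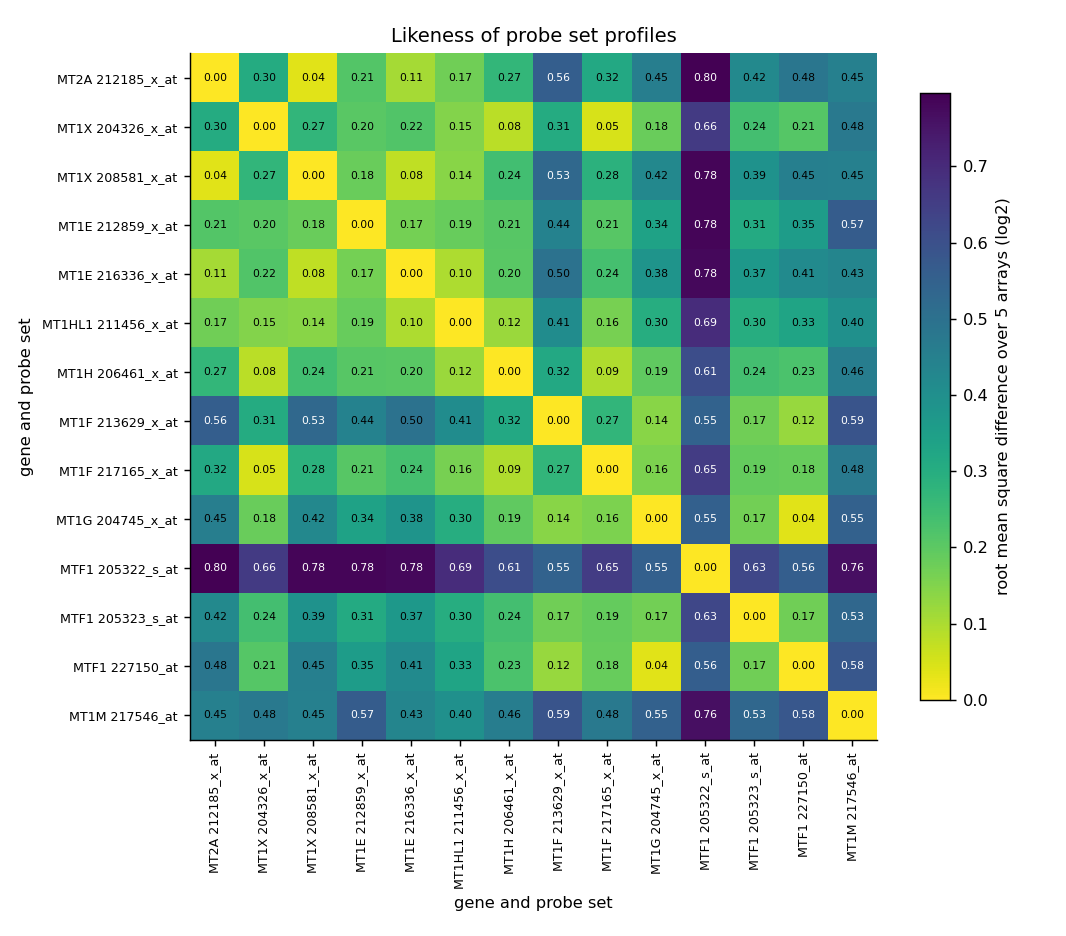
Root mean square difference over 5 arrays between the profiles of 14 probe sets, in log2 units, each centred on its mean, where lighter cells are more alike. MT1X 208581_x_at and MT2A differ by 0.04, and the 2 probe sets of MT1X by 0.27.

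MTF1, the regulator, stood above the control mean under all 3 siRNAs, but its control arrays were far apart. Its probe set 205322_s_at read 0.07 and -1.65 on the controls and -0.09, 0.86 and 0.00 under siRNAs 1, 2 and 3. Probe set 205323_s_at read 0.00 and -0.43 on the controls and -0.59, 0.39 and 0.09 under the siRNAs. Probe set 227150_at read 0.00 and -0.29 on the controls and -0.14, 0.80 and 0.46 under the siRNAs. siRNA 2 was the highest array in all 3, control array 2 the lowest in 2, and siRNA 1 was below control array 1 in each. The gene's mean difference was 0.58 ± 0.48 (SD, n = 3 siRNAs; limma 95% interval -0.74 to 1.90, adjusted p = 0.9999). Its value was 0.17 without control array 2, 0.98 without control array 1 and 0.34 without siRNA 2. Control array 2 minus control array 1 was -0.81, and within the spike-in sets MTF1 stood at -0.30, 0.66 and 0.97. Within the family and MTF1, the profile of 227150_at was nearest to that of MT1G, at 0.04. Of the 30136 other probe sets 2 were as near to it, that of MT1G included. The other MTF1 probe sets were farther from their nearest metallothionein. That distance was 0.17 for 205323_s_at, with 380 probe sets as near, and 0.55 for 205322_s_at, with 1110.

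By the same measure, the genes outside the family nearest to the median metallothionein profile were RAP1A, a small GTPase, OAT, the ornithine aminotransferase, CYB5D1, CWC15, a splicing factor, and RAB2A, a GTPase of early secretory traffic. They differed from the profile by 0.02, 0.03, 0.03, 0.03 and 0.04 over 5 arrays, and 80 of 12884 genes were within 0.1. A gene with no variation would differ from the profile by 0.22. They were picked for likeness to a profile highest under siRNA 2, so their own height there is part of the choice. Against the control mean it ran from 0.49 for CYB5D1 to 0.55 for OAT, and none of the 5 genes passed the test.

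Zinc transporters were compared as the other genes of zinc handling, with lists chosen with earlier results of these data known. The list of zinc exporters held 7 measured genes of the SLC30A family. Most members of that family, but not all, move zinc out of the cytosol. Of the 7 limma called 0. Above the control mean under all 3 siRNAs were 3 (all genes, 17.9%), and 1 was below under all 3 (all genes, 18.2%). The 1 below, SLC30A5, differed by only -0.0014 under siRNA 3. The exporter medians were -0.09, 1.0 and 0.44 under siRNAs 1, 2 and 3. SLC30A1 read -0.02 and -0.11 on the controls and -0.01, 0.96 and 0.94 under siRNAs 1, 2 and 3. The arrays of siRNAs 2 and 3 stood apart from the other 3, and siRNA 1 read close to both controls. Its mean difference was 0.69 ± 0.56 (SD, n = 3 siRNAs; limma adjusted p = 0.9999). SLC30A8, the exporter of insulin granules, stood at 0.48, 1.20 and 0.89, and SLC30A10, a manganese exporter named after its values were seen, at -0.45, 2.34 and 3.35. Of 12 measured importers of the SLC39A family 2 were above the control mean under all 3 siRNAs and 1 below, with medians of -0.01, 0.27 and 0.01. SLC39A14, which takes zinc and iron into hepatocytes, stood at 0.34, 0.51 and 0.95, and SLC39A13 at 0.21, 0.39 and 0.08.

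Genes of copper and iron handling were read as further metal lists. Over all genes 17.9% were above the control mean under all 3 siRNAs and 18.2% below. The 12 copper genes had medians of 0.08, 0.27 and 0.18 under siRNAs 1, 2 and 3, with 5 above under all 3 and 0 below. Among the 5, SCO1 and COMMD1 were above by only 0.0043 and 0.0042 under siRNA 3. Within its spike-in set SCO1 stood at -0.21 there. ATP7B, the copper pump of the hepatocyte, stood at 0.44, 0.77 and 1.11, and the copper chaperone gene ATOX1 at 0.26, 0.62 and 0.48. The 11 iron genes had medians of -0.20, -0.04 and 0.52, with 2 above under all 3 and 0 below. HJV, a coreceptor that drives hepcidin expression, stood at 0.99, 0.32 and 1.38, and SLC40A1, the iron exporter, at 0.17, 0.78 and 0.11. limma called 0 genes in either list, with 0 at an unadjusted p under 0.05.

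Other signals known to raise metallothioneins were read from their targets. The share of all genes above the control mean under all 3 siRNAs was 17.9%, and the share below was 18.2%. The 10 genes of the heavy metal and heat shock response had medians of 0.23, -0.12 and 0.07 under siRNAs 1, 2 and 3. Of these, 4 were above under all 3 siRNAs and 0 below. The cochaperone gene BAG3 stood at 0.56, 0.54 and 0.41 and SRXN1, the sulfiredoxin gene, at 0.37, 0.15 and 0.79, or -0.03 under siRNA 2 within its spike-in set. HMOX1, the haem oxygenase induced by cadmium, stood at -0.09, -1.45 and 1.13, or 0.10 under siRNA 1 within its set. The 7 glucocorticoid targets had medians of -0.03, -0.21 and -0.58, with 1 above under all 3 and 3 below. TAT stood at 0.40, 0.29 and 0.50 and the kinase gene SGK1 at -0.93, -0.28 and -0.74. The 10 genes of STAT3 and the acute phase had medians of -0.36, 0.33 and 0.47, with 1 above under all 3 (STAT3, at 0.85, 0.65 and 0.48) and 1 below (JUNB, at -0.64, -0.58 and -0.09). Within the spike-in sets JUNB turned under siRNA 3, to 0.38. limma called 0 genes in these 3 lists.

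Genes around the cluster on chromosome 16 were read as a list of neighbours. The 13 measured neighbours had medians of -0.10, -0.23 and -0.02 under siRNAs 1, 2 and 3, and limma called 0. Above the control mean under all 3 siRNAs were 0 (all genes, 17.9%), and 3 were below (all genes, 18.2%). BBS2, on the MT2A side, stood at -0.45, 0.40 and -0.08. NUP93, a nuclear pore gene on the MT1X side, stood at -0.37, -0.63 and -0.48, and CIAPIN1, farther along, at -0.10, -1.28 and -0.58.

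**Figure D5:**
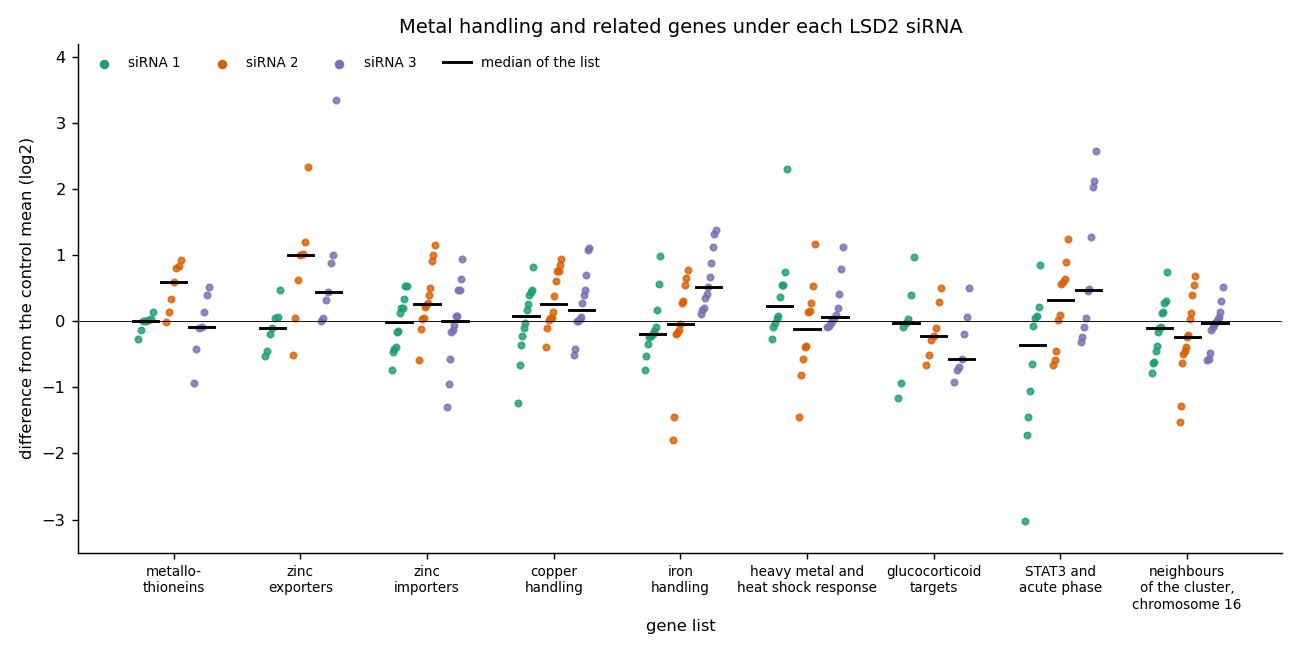
Differences from the control mean, in log2 units, of each gene of 9 lists under siRNAs 1, 2 and 3 (coloured points), with the list's median as a black bar. The metallothionein median is 0.60 under siRNA 2, that of the zinc exporter list (SLC30A family) 1.0 and that of the chromosome 16 neighbours -0.23.

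Markers of the cell type were read as differences, since levels were not in the values and presence or absence could not be judged. Over all genes 17.9% were above the control mean under all 3 siRNAs and 18.2% below. The 8 measured hepatocyte markers had 1 above (SERPINA1, which under siRNA 1 read -0.05 within its spike-in set) and 0 below. Their medians were -0.40, 0.63 and 0.60 under siRNAs 1, 2 and 3, nearly equal under siRNAs 2 and 3. Those of the metallothioneins were 0.00, 0.60 and -0.08. Albumin stood at -2.02, 3.03 and 2.69. The part of this in the metallothionein values was not tested. The 5 measured fibroblast markers had medians of 1.10, -0.32 and -1.48, with 1 above the control mean under all 3 siRNAs (DCN, mean 1.03) and 1 below (LUM, mean -1.29). The 4 measured leukocyte markers had medians of -0.05, 0.08 and -0.13, with 1 above (CD14, mean 1.61) and 1 below (CD3E, mean -0.56), and PECAM1, the endothelial marker with a value, stood at -0.01, -1.07 and 0.10.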

How the data were processed

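RNA of HepG2 cells was hybridised to 5 GeneChip expression arrays, 3 for LSD2 siRNA and 2 for the control. The deposited table holds values on both sides of 0 (from -7.05 to 7.47), taken as log2, and the authors had centred each of the 30137 probe sets on its median over the arrays. MAS5 is named in the submitters' processing notes. Filters, any scaling and the base of the logarithm (2 was assumed) are not given in the sources used here. Signal over background was therefore unknown. Probe sets were named through the platform annotation, with symbols checked by gene ID against RefSeq (0 updated), and 24151 had 1 symbol. A gene was the mean of its probe sets. The test was limma 3.58.1 (lmFit, eBayes; R 4.3.3), two-sided, comparing the siRNA arrays (3) to the mean of the control arrays, whose spread was taken to equal that of the siRNA arrays. P-values were adjusted by Benjamini-Hochberg across all 12893 genes at a threshold of 0.05. The fit was run on simulated data with known shifts, which checked the estimated differences and set no requirement on p-values or calls. Members and gene lists were chosen with earlier results of these data known. The rule for names took all members, KDM1B, SLC30A1 and the 5 genes nearest in profile. It also took up to 2 genes per list that lay furthest from the control by the weakest siRNA. Other genes (HMOX1, BBS2, ALB, SLC30A10, SLC30A5, SCO1 and COMMD1) were named after their values were seen. Alternatives covered left-out arrays, control arrays kept separate, spike-in sets as a block, the replicate number as a block, normalization and the choice of probe sets. Plots were made with matplotlib 3.10.9 in Python 3.11.15.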

Additional observations from a re-analysis of the deposited data

How the results depend on the processing

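limma called 0 of all genes and 0 of the members with a value in each of 15 alternatives. Without _x_at probe sets only MT1M and MTF1 of the 8 members had a value. The alternatives had 212 to 707 genes at an unadjusted p under 0.05 (218 as reported). Of 114 member values under alternatives 106 kept the reported direction and 8 turned it. Not all of these could differ from the reported value. Keeping the control arrays separate, a robust variance model and centring arrays on their median left every member difference as reported. The replicate block repeated the differences obtained without siRNA 3. Leaving out 1 array at a time, MT1E ran from -0.051 (without siRNA 2) to 0.071 and was -0.019 without control array 2, and MT1X ran from -0.019 (without siRNA 2) to 0.19. MT1M ran from -0.60 to 0.27 (without siRNA 3) and was 0.093 without control array 1, and MT2A ran from -0.29 to 0.0077 (without control array 1). With the spike-in sets as a block MT1E was -0.0088. With the replicate block, the number in the labels entered as a pairing, MT1M was 0.27, and limma called 0 genes (707 at an unadjusted p under 0.05). Same-numbered arrays had correlations of their deviations of 0.10 and -0.05 across genes. The control deviations mirror each other, so this does not settle whether same-numbered arrays share more than a number. MT1F, MT1G and MT1H kept their direction in the 14 alternatives that gave them a value (without _x_at probe sets they have none), and MTF1 in 15, at 0.13 to 0.62, 0.27 to 0.72, 0.14 to 0.44 and 0.17 (without control array 2) to 0.98 (without control array 1). The median over the metallothioneins was -0.02 to 0.27 with 1 array left out. It was 0.29 with 1 probe set per gene. Without _x_at probe sets MT1M alone was left, at -0.13. The cause of these shifts was not tested. The planned pseudocount and filter on dim probe sets were not run, since the values held no levels.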
